A study of Homo sapiens with 6 samples.

Results

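Small RNA sequencing of extracellular vesicles (EVs) listed 471 miRNA names, and the subject here is 5 miRNAs that are encoded inside the HOX gene clusters. They are hsa-miR-10a-5p, hsa-miR-10b-5p, hsa-miR-196a-5p, hsa-miR-196b-5p and hsa-miR-615-3p (the prefix is left off below), and they were chosen by name, for where their hairpins lie. The EVs came from day 14 culture medium of Cal27 spheroids. Cal27 is an established human line derived from a squamous carcinoma of the tongue. Spheroids were grown on growth factor-reduced Matrigel, a basement membrane gel, at 3 mg/mL for the soft group (EVsoft) or 12 mg/mL for the stiff group (EVstiff). Each group had 3 libraries, which the labels call biological replicates. Both groups used the same single cell line and a medium with EV-depleted fetal bovine serum. Gel concentration differed together with stiffness, and their parts cannot be told apart. Matrigel is of mouse origin, and reads of a miRNA with the same sequence in several species cannot be assigned to one.

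HOX genes encode homeodomain transcription factors that give cells their position along the body axis. A few miRNA hairpins lie between them and are transcribed on the same strand, and their mature products pair with target mRNAs through a seed, bases 2 to 8 from the 5′ end. The miR-196 family is best known for repressing HOX mRNAs, above all HOXB8, and miR-10 is known for its place beside the HOX4 genes and for studies of invasion in several carcinomas.

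The mature sequences show how the miRNAs are related, so they are given here with the seed in capitals (RefSeq, GRCh38.p14). Of the 5 miRNAs, 4 matched an entry, and miR-10b-5p is named only. For comparison, miR-100-5p, a relative of miR-10 that lies outside the HOX clusters, is shown with its own seed in capitals, and let-7b-5p with bases 3 to 9 in capitals.
miR-10a-5p: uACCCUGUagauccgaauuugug
miR-196a-5p: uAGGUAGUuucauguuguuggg
miR-196b-5p: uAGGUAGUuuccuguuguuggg
miR-615-3p: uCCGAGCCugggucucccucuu
miR-100-5p: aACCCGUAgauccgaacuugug
let-7b-5p: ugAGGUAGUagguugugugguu

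The 2 miR-196 sequences have the same seed and differ at 1 of 22 bases, by A12C from miR-196a-5p to miR-196b-5p, counted from 1 at the 5′ end. Their seed is also found in let-7b-5p, shifted by 1 base to bases 3 to 9. The seed of miR-10a-5p is shared with no other sequence in this list, which does not hold its paralog miR-10b-5p. Without the U at position 6 of miR-10a-5p, 15 bases in a row from base 2 on match miR-100-5p, whereas 4 match as the sequences stand. Reads that differ by so little can be divided between names by the counting, so the split between miR-196a-5p and miR-196b-5p rests on 1 base. The 2 miR-10 paralogs were not compared by sequence, so what their split rests on was not checked.

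A read of miR-196a-5p cannot be assigned to a cluster, because both hairpins of miR-196a hold the same mature sequence. The longest run of bases that they share is 23 bases long and contains the 22 bases of the mature miRNA. The hairpins are shown to make this plain, with the counted mature sequences in capitals. MIR196A1 lies in HOXB at chr17:48632490-48632559 on the minus strand, and MIR196A2 in HOXC at chr12:53991738-53991847 on the plus strand. MIR615, at chr12:54033950-54034045 on the plus strand, is printed beside them because both of its arms were counted.
MIR196A1: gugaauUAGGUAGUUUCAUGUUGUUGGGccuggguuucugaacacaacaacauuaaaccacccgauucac
MIR196A2: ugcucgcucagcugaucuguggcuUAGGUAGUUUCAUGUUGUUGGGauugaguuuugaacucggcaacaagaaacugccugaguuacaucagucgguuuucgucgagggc
MIR615: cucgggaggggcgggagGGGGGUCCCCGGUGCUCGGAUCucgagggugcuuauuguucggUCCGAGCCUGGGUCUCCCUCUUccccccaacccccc

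In the GENCODE 44 annotation of GRCh38, 8 miRNA hairpins lie between the outermost HOX genes of the 4 clusters, and 6 of them give the 5 miRNAs. The hairpins MIR3185 and MIR7704 were not analysed here. MIR10A (chr17:48579838-48579947, minus strand) lies 1488 bases before HOXB4, in an intron of HOXB3 transcripts and in an exon of a lncRNA. MIR10B (chr2:176150303-176150412, plus strand) lies 1138 bases before HOXD4, in an intron of HOXD3 transcripts. MIR196B (chr7:27169480-27169563, minus strand) lies 1042 bases after HOXA10 and is within the HOXA9 gene, in an exon of some of its transcripts and an intron of others. The annotation also places it in an intron of another protein-coding gene model (ENSG00000257184). MIR196A1 lies 6132 bases before HOXB9 in an intron of HOXB7 transcripts, and MIR196A2 lies 1459 bases after HOXC10 in an intron of HOXC6 transcripts. MIR615 lies in introns of HOXC4 and HOXC5 transcripts, 3127 bases after HOXC6. The miR-10 hairpins therefore sit at matching places beside a HOX4 gene, and the miR-196 hairpins beside HOX9 and HOX10 genes, as the map of the clusters shows.

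**Figure D1:**
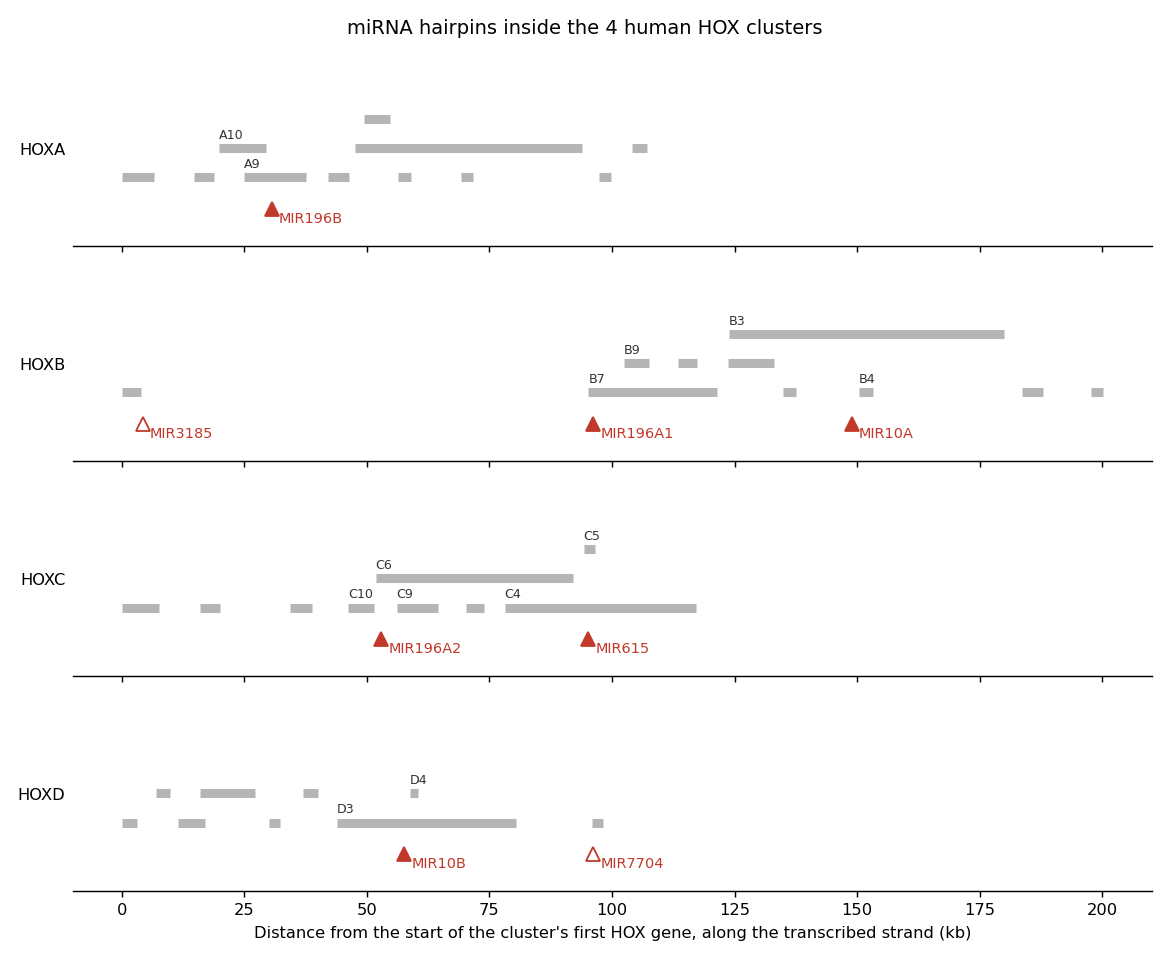
Map of the HOXA, HOXB, HOXC and HOXD clusters along the transcribed strand, with distance in kb from the start of the first HOX gene on the x axis. Grey bars are HOX genes, stacked only where they overlap or lie close, with names for those at a hairpin, filled triangles are hairpins of the 5 miRNAs and open triangles are the hairpins that were not analysed. The 6 filled triangles show MIR10A and MIR10B next to HOXB4 and HOXD4, and the MIR196 hairpins close to the HOX9 and HOX10 genes.

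Some of the miRNAs also meet the HOX genes as possible targets. In the 39 HOX 3′ UTRs of canonical GENCODE transcripts, the 7-base match to the miR-196 seed, ACTACCT, was found 14 times in 8 genes (HOXA5, HOXA7, HOXA9, HOXB1, HOXB6, HOXB7, HOXB13 and HOXC8). That is 0.319 matches per kb, against 0.044 per kb over all 19489 3′ UTRs, of which 7.01% hold the match. Matches were searched on the mRNA strand only. The match to the miR-10a-5p seed, ACAGGGT, was found in 3 of the 39, at 0.068 per kb, below the 0.088 per kb over all UTRs, of which 12.56% hold it. For miR-615-3p the match GGCTCGG was found in HOXB4 and HOXC6, at 0.046 per kb, against 0.016 per kb and 2.61% of UTRs overall. The most complete site for miR-196a-5p was in HOXB8, at chr17:48612770-48612791 on the minus strand, where 21 of 22 bases form Watson-Crick pairs and the base opposite position 5 of the miRNA, in lower case, can form a wobble pair.
HOXB8 site: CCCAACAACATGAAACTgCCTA
Only 1 of 19388 3′ UTRs of sufficient length, that of HOXB8, held a site this complete without gaps, and the next HOX gene, HOXA7, had 15 Watson-Crick pairs. These are matches of letters, and no target mRNA was measured here.

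The libraries held few miRNA reads, 39211 to 66345 in EVsoft and 28688 to 30685 in EVstiff. Every EVsoft library had more miRNA reads than every EVstiff library. The paper states that library volumes were adjusted towards equal read numbers per sample. These totals are thus of miRNA reads, not of all reads sequenced. The HOX-cluster miRNAs were minor cargo. Their reads summed to 292, 388 and 519 in the EVsoft libraries and to 219, 237 and 166 in the EVstiff libraries. Values below are CPM, read counts scaled to a common library total with TMM factors. They are relative to the remaining miRNA reads, so that a change in amount per vesicle and a change in the rest of the cargo cannot be told apart. A single read was worth 14.9 to 36.0 CPM, and a count of 0 allows up to 3 reads, or 44.8 to 108 CPM. These limits cover counting error only. The epithelial markers miR-200c-3p, miR-205-5p, miR-203a-3p and miR-141-3p were all counted (summed 52190 to 63194 CPM in EVsoft and 48563 to 50102 CPM in EVstiff), and 1 of the 3 tested among them fell. Of 4 white blood cell markers 3 were listed, with at most 2 reads in a library together, and of 5 stromal and endothelial markers 4 were listed, with 4 to 14 reads. Of 3 red blood cell markers 2 were listed, and they summed to 448 to 1553 CPM in EVsoft and 366 to 1977 CPM in EVstiff. The liver marker miR-122-5p was at 2762 to 4339 CPM in EVsoft and 6462 to 7512 CPM in EVstiff, and its part in the differences given below was not tested.

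The comparison of EVstiff with EVsoft asks whether these miRNAs in EVs follow the stiffness of the matrix. The filter on low counts kept 105 miRNAs, 4 of the 5 among them, and miR-196b-5p fell under it. No HOX-cluster miRNA passed both thresholds of the study, an adjusted p of at most 0.05 and an absolute log2 fold change above 0.58 (0 of 4 in edgeR's quasi-likelihood test), where 18.1% of all tested miRNAs were called and 7.62% were called lower in EVstiff. At an unadjusted p under 0.05 the count was 1 of 4, miR-196a-5p, where 40.0% of all tested miRNAs had such a p. DESeq2, limma-voom and limma on log2 of RPM plus 1 called 0 of them, where they called 14.6%, 17.1% and 14.3% of the miRNAs they tested. The likelihood ratio test of edgeR called 1 of 4, where it called 25.7% of the 105. The 4 log2 fold changes (EVstiff over EVsoft) ranged from -0.82 to 0.39 with a median of -0.10, beside a median of -0.04 over the 105. The CPM of EVsoft and EVstiff did not overlap for 2 of the 4, miR-10b-5p and miR-196a-5p, where this held for 47.6% of the tested miRNAs. Both were lower in EVstiff, and 24.8% of all tested miRNAs were without overlap and lower in EVstiff.

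**Figure D2:**
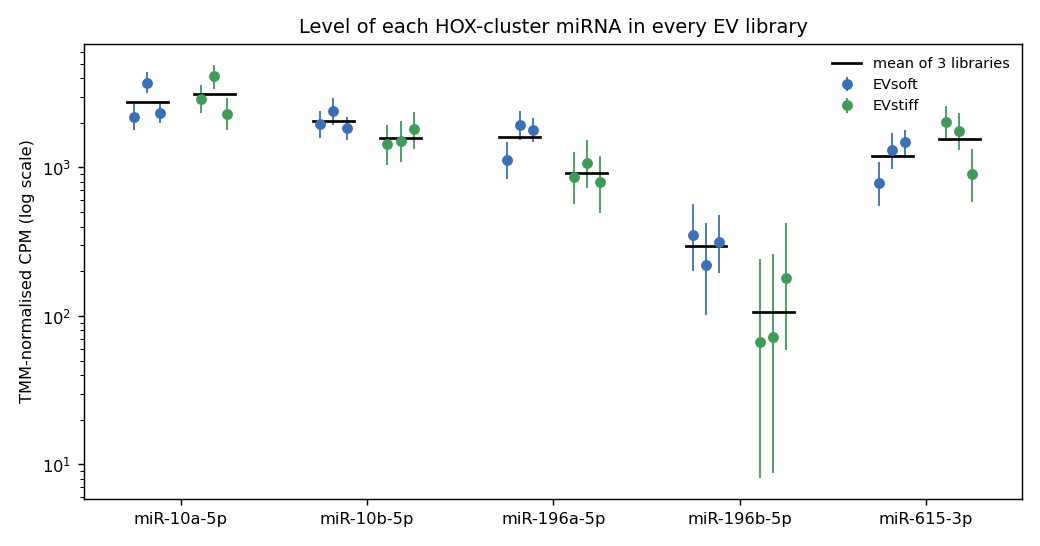
CPM of each HOX-cluster miRNA on a log scale, with 1 point per library in the order of replicates 1 to 3, blue for EVsoft and green for EVstiff. Vertical bars are exact 95% Poisson intervals of the read count and black lines are means of 3 libraries. The miR-196a-5p and miR-196b-5p points of EVstiff sit below all of EVsoft, and those of miR-10a-5p and miR-615-3p are mixed.

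Of the tested HOX-cluster miRNAs, miR-196a-5p had the largest difference. Its reads numbered 51, 78 and 120 in EVsoft and 26, 30 and 22 in EVstiff. In CPM these were 1121, 1923 and 1791 in EVsoft and 866, 1078 and 793 in EVstiff. In CPM all 3 EVstiff libraries were below all 3 EVsoft libraries, although replicate 1 of EVsoft lay close to replicate 2 of EVstiff. The read counts did not overlap either, but every EVsoft library held more miRNA reads in total, so counts can separate through that total alone. The mean was 1612 ± 430 CPM (SD, n = 3) in EVsoft and 912 ± 148 CPM (SD, n = 3) in EVstiff. The log2 fold change was -0.82 (standard error 0.28, 95% interval -1.44 to -0.20). The unadjusted p was 0.0147 and the adjusted p was 0.0572 (edgeR, quasi-likelihood), which missed the threshold, in place 27 of the 105 by p, where 25 had an adjusted p of at most 0.05 (23.8%). Over 19 alternatives its adjusted p ranged from 0.000152, with equal library sizes, to 0.156, and it was called in 5. Without replicate 1 of EVsoft the log2 fold change was -1.03 (adjusted p = 0.0196 from the same edgeR test), and with all 6 libraries it was called with library size only, equal library sizes, a minimum of 10 counts in every library, or the likelihood ratio test. In that order, these fits called 18 of 106, 19 of 105, 57 of 105, 22 of 87 and 27 of 105 miRNAs. Leaving out any other library gave an adjusted p of 0.0524 to 0.156 from the same edgeR test, without a call.

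The paralog miR-196b-5p, from the HOXA cluster, was too rare for a firm statement. It had 16, 9 and 21 reads in EVsoft and 2, 2 and 5 in EVstiff, 55 reads in all. The corresponding levels were 352, 222 and 313 CPM in EVsoft and 66.6, 71.9 and 180 CPM in EVstiff. The groups did not overlap, but the highest EVstiff library, replicate 3, and the lowest EVsoft library, replicate 2, had counting intervals of 58.5 to 421 and 101 to 421 CPM. The filter asked for at least 286 CPM on the library size in 3 libraries, and 2 reached it. In a fit without the filter, edgeR's quasi-likelihood test gave a log2 fold change of -1.54 (standard error 0.73, 95% interval -2.98 to -0.10) with an unadjusted p of 0.0358 and an adjusted p of 0.384. In that fit 3.23% of 464 miRNAs were called, and 3.66% had an adjusted p of at most 0.05. It pooled the spread over miRNAs, with 1856 degrees of freedom against 10.2 in the main fit. The p and interval therefore rest little on the spread of miR-196b-5p itself. Its mean was 296 ± 66.7 CPM (SD, n = 3) in EVsoft and 106 ± 64.1 CPM (SD, n = 3) in EVstiff. Both SDs were close to those that counting alone would give, 77.9 and 61.1 CPM.

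The miR-10 paralogs lay on opposite sides of 0. For miR-10a-5p, from the HOXB cluster, the reads were 100, 151 and 156 in EVsoft and 87, 114 and 64 in EVstiff. The levels were 2197, 3723 and 2329 CPM in EVsoft and 2898, 4097 and 2307 CPM in EVstiff. The groups overlapped almost fully, and in each group replicate 2 was the highest. Means were 2750 ± 845 CPM (SD, n = 3) and 3101 ± 912 CPM (SD, n = 3), a log2 fold change of 0.18 (standard error 0.27, 95% interval -0.41 to 0.77, adjusted p = 0.651 from edgeR). Counting alone would give SDs of 238 and 330 CPM, and the spread within each group was larger than that. The sign of this small difference rested on replicate 2 of EVstiff, without which it was -0.049, and without replicate 2 of EVsoft it was 0.45.

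For miR-10b-5p, from the HOXD cluster, the reads were 89, 97 and 123 in EVsoft and 43, 42 and 50 in EVstiff. The levels were 1956, 2391 and 1836 CPM in EVsoft and 1432, 1510 and 1802 CPM in EVstiff. The ranges met without overlap, since the lowest EVsoft library (1836 CPM) was just above the highest EVstiff library (1802 CPM). The mean was 2061 ± 292 CPM (SD, n = 3) in EVsoft and 1581 ± 195 CPM (SD, n = 3) in EVstiff. The log2 fold change of -0.38 (standard error 0.21, 95% interval -0.85 to 0.09) did not pass the test (adjusted p = 0.201 from edgeR). Its SDs were near those of counting alone, 206 and 236 CPM.

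Because both are counted in the same library, the share of miR-10a-5p among the reads of the miR-10 pair does not depend on scaling. It can depend on how the counting divided reads between the paralogs, which was not checked. The share was 52.9%, 60.9% and 55.9% in EVsoft and 66.9%, 73.1% and 56.1% in EVstiff. The groups overlapped through replicate 3 of EVstiff, whose exact 95% binomial interval ran from 46.5% to 65.4%. The means were 56.6% ± 4.03 (SD, n = 3) and 65.4% ± 8.57 (SD, n = 3). The share of miR-196a-5p in the miR-196 pair was 76.1%, 89.7% and 85.1% in EVsoft and 92.9%, 93.8% and 81.5% in EVstiff. These groups overlapped as well, with 27 to 32 reads of the pair in each EVstiff library.

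The remaining HOXC product, miR-615-3p, is made from a hairpin in an intron of HOXC4 and HOXC5. Its reads were 36, 53 and 99 in EVsoft and 61, 49 and 25 in EVstiff, or 791, 1307 and 1478 CPM and 2032, 1761 and 901 CPM. The highest EVstiff libraries, replicates 1 and 2, were above all of EVsoft, and replicate 3 was below 2 of the EVsoft libraries. The mean was 1192 ± 358 CPM (SD, n = 3) in EVsoft and 1565 ± 590 CPM (SD, n = 3) in EVstiff. The log2 fold change was 0.39 (standard error 0.34, 95% interval -0.37 to 1.14, adjusted p = 0.413 from edgeR). Leaving out replicate 3 of EVstiff gave 0.67 and leaving out replicate 1 of EVstiff gave 0.13, with adjusted p values of 0.149 and 0.789.

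**Figure D3:**
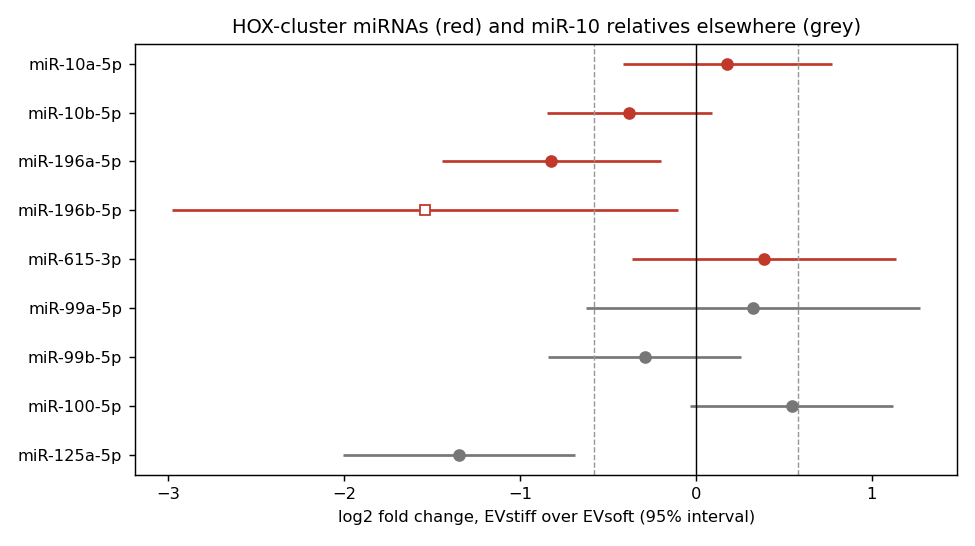
log2 fold change of EVstiff over EVsoft on the x axis, with 95% intervals, for the HOX-cluster miRNAs in red and for the tested miR-10 relatives outside the clusters in grey. Dashed lines mark the fold threshold of 0.58 and the open square is miR-196b-5p from the fit without a filter. The interval of the open square rests on 1856 degrees of freedom and the others on 10.2, so they are not alike. The intervals of miR-10a-5p, miR-10b-5p and miR-615-3p cross 0, whereas that of miR-196a-5p runs from -1.44 to -0.20 before adjustment for multiple tests.

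By HOX cluster, the mean CPM of the HOXA product (miR-196b-5p) and of the HOXD product (miR-10b-5p) was lower in EVstiff, and that of miR-10a-5p from HOXB and miR-615-3p from HOXC was higher. None of the tested ones passed the test, and miR-196b-5p was not tested after filtering. The reads of miR-196a-5p belong to HOXB or HOXC, and its mean was lower in EVstiff (912 against 1612 CPM). No direction can therefore be given for HOXB or HOXC as a whole. As a share of all miRNA reads, the 5 together made up 0.637%, 0.990% and 0.782% in EVsoft and 0.714%, 0.826% and 0.559% in EVstiff. These ranges overlapped, with means of 0.803% ± 0.177 (SD, n = 3) and 0.700% ± 0.134 (SD, n = 3). Within the reads of the 5, miR-196a-5p took 17.5% to 23.1% in EVsoft and 11.9% to 13.3% in EVstiff, without overlap. The other 4 overlapped between the groups in this share, miR-10a-5p only just, with 30.1% to 38.9% in EVsoft and 38.6% to 48.1% in EVstiff. Such shares were not computed for other sets of miRNAs. In CPM 47.6% of all tested miRNAs were without overlap, so a lack of overlap is common here.

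**Figure D4:**
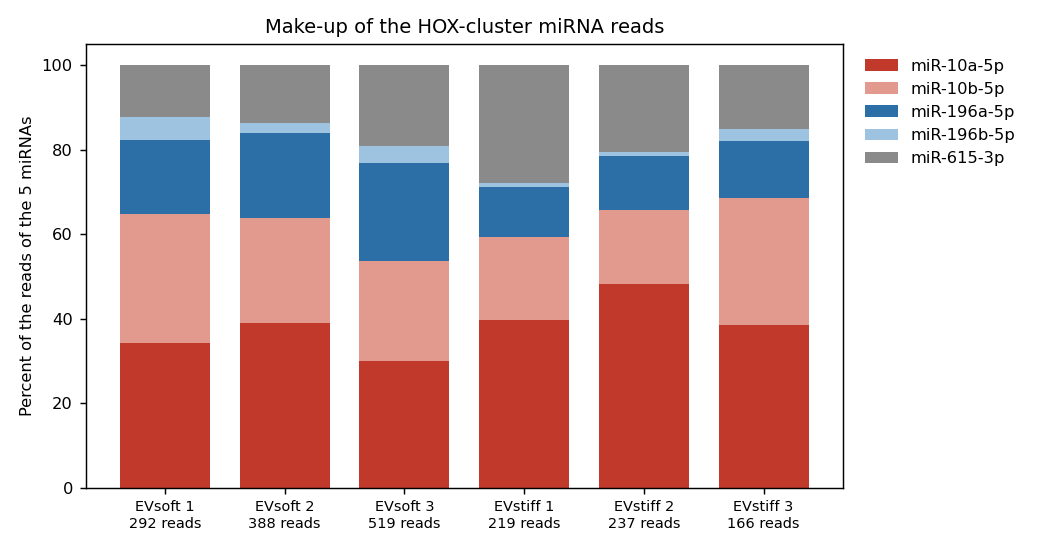
Stacked bars of the percent of reads that each HOX-cluster miRNA took of the 5 together, in each of the 6 libraries, with the summed reads written under each bar. The dark blue band, miR-196a-5p, spans 17.5% to 23.1% in the EVsoft libraries and 11.9% to 13.3% in the EVstiff libraries.

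Among the 10 ratios that can be formed from the 5 read counts, 2 did not overlap between the groups. Over the 5356 pairs of tested miRNAs with reads in every library, 39.6% of ratios did not overlap. Those pairs leave out miR-196b-5p, which was not tested but enters some of the 10 ratios, so the 2 sets are not alike. Both HOX-cluster ratios without overlap involved miR-196a-5p. For each read of miR-196a-5p there were 1.96, 1.94 and 1.30 reads of miR-10a-5p in EVsoft and 3.35, 3.80 and 2.91 in EVstiff. The ratio of miR-196a-5p to miR-615-3p was 1.42, 1.47 and 1.21 in EVsoft and 0.426, 0.612 and 0.880 in EVstiff, so that miR-196a-5p was the more frequent of the pair in every EVsoft library and the less frequent in every EVstiff library. The hairpins of this last pair, MIR196A2 and MIR615, share the HOXC cluster, with MIR196A1 in HOXB as the other possible source. On the log2 scale this ratio was 0.45 ± 0.15 (SD, n = 3) in EVsoft and -0.71 ± 0.52 (SD, n = 3) in EVstiff.

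The order of levels, for products of nearly equal length, differed between the groups in 1 place. It is an order of reads, and how well each sequence was recovered in the libraries was not measured. In EVsoft it ran from miR-10a-5p through miR-10b-5p, miR-196a-5p and miR-615-3p to miR-196b-5p, and each miRNA overlapped in CPM with the next except that the lowest miR-615-3p library (791 CPM) was above the highest of miR-196b-5p (352 CPM). In EVstiff miR-196a-5p came after miR-615-3p, with overlap between these neighbours. There miR-10a-5p was above miR-10b-5p in every library without overlap (lowest 2307 against highest 1802 CPM), and miR-196b-5p was again apart at the bottom. By summed reads miR-10a-5p was in place 38 of the 471 names, miR-10b-5p in place 45, miR-196a-5p in place 52, miR-615-3p in place 54 and miR-196b-5p in place 113.

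The other arms of these hairpins were nearly absent. Over all 6 libraries miR-10a-3p had 7 reads beside 672 of miR-10a-5p, a share of 1.03% (exact 95% binomial interval 0.415% to 2.11%). For miR-10b-3p there were 6 reads beside 444 of miR-10b-5p, or 1.33% (0.491% to 2.88%), and for miR-615-5p 6 reads beside 323 of miR-615-3p, or 1.82% (0.672% to 3.93%). By reads the dominant arm was thus the 5p arm of the miR-10 hairpins and the 3p arm of MIR615. With at most 3 reads of a minor arm in a library, a difference between the groups was not detectable at these counts. For the other arms of the miR-196 hairpins, the names miR-196a-3p, miR-196a-1-3p and miR-196b-3p were looked for among the counted miRNAs and were not listed.

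The miR-10 relatives outside the HOX clusters gave a mixed picture too. Of 5 (miR-99a-5p, miR-99b-5p, miR-100-5p, miR-125a-5p and miR-125b-5p) 4 were tested, and 1 fell and 0 rose past both thresholds. The one that fell, miR-125a-5p, had a log2 fold change of -1.35 (adjusted p = 0.00849 from edgeR). Its sequence is less like miR-10a-5p than that of miR-100-5p. From base 2 on, 0 bases in a row match, and 5 match after removal of a base from miR-10a-5p, against 15 for miR-100-5p. Those that did not pass had log2 fold changes of 0.55 for miR-100-5p (adjusted p = 0.139), 0.32 for miR-99a-5p (adjusted p = 0.603) and -0.29 for miR-99b-5p (adjusted p = 0.413). With 0 to 6 reads in a library, miR-125b-5p was not tested. The miR-196 seed shifted by 1 base was looked for in let-7b-5p only, and the rest of its family was not compared by sequence. Among let-7 and miR-98, 9 of 9 were tested. By edgeR 1 rose and 0 fell past both thresholds (1 more had a lower level at an adjusted p of at most 0.05), and their median log2 fold change was -0.06.

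Over the 6 libraries, each tested HOX-cluster miRNA was compared in pattern with the tested miRNAs outside the clusters. Likeness was the root mean square difference of log2 CPM after centring each miRNA on its own mean, over 101 miRNAs. For miR-10a-5p the nearest were miR-92b-3p (0.22) and let-7d-3p (0.23), where the median over all was 0.50. For miR-10b-5p they were miR-185-5p (0.15) and its relative miR-99b-5p (0.16), with a median of 0.40. For miR-196a-5p they were miR-22-5p (0.22) and miR-181b-5p (0.24), with a median of 0.56, and for miR-615-3p let-7e-5p (0.31) and miR-128-3p (0.37), with a median of 0.58. Among the 4 themselves the difference ranged from 0.35, for miR-10b-5p and miR-196a-5p, to 0.63, for miR-10b-5p and miR-615-3p, and was 0.43 for the paralogs miR-10a-5p and miR-10b-5p.

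**Figure D5:**
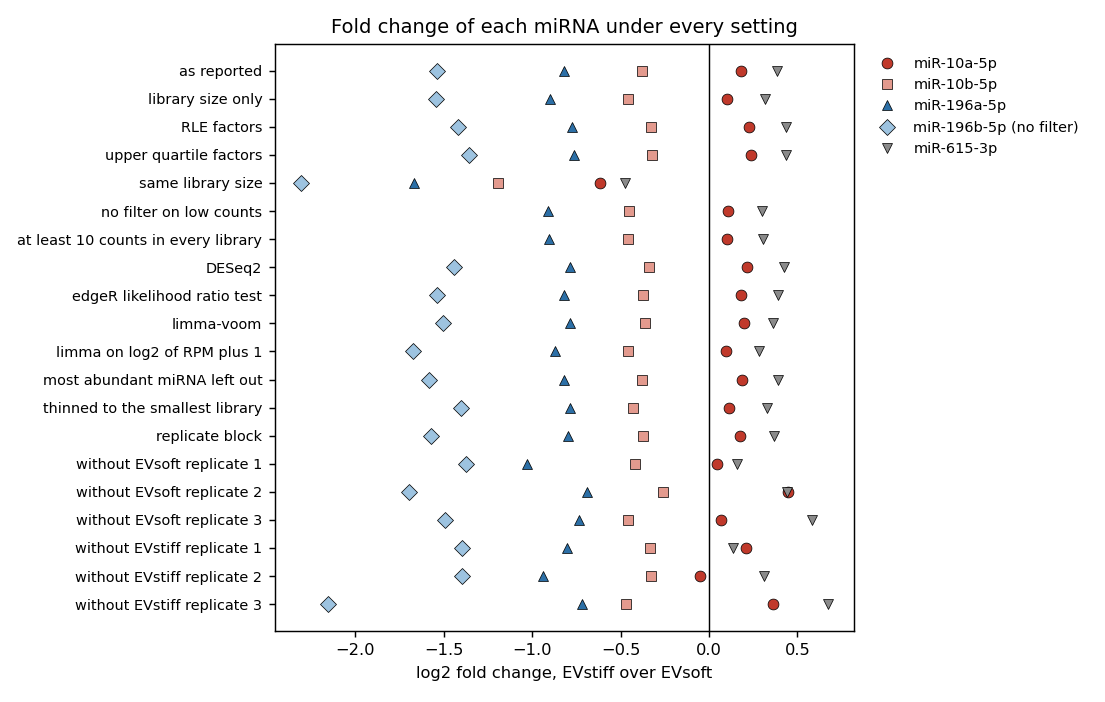
log2 fold change of EVstiff over EVsoft on the x axis for each HOX-cluster miRNA, under the reported analysis and 19 alternatives on the y axis (miR-196b-5p is from fits without a filter, which 17 of the alternatives allowed). The symbols of miR-196a-5p, miR-196b-5p and miR-10b-5p lie below 0 in every row, and those of miR-10a-5p and miR-615-3p lie above 0 except for miR-10a-5p without EVstiff replicate 2 and for both with the same library size.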

How the data were processed

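Small RNA libraries of EVs from 3 EVsoft and 3 EVstiff samples were analysed, with groups and replicate numbers taken from the sample titles. The authors deposited raw read counts per miRNA. Their quality control used exceRpt, and features were those of RefSeq. The submitters' processing notes name hg38, and the aligner is not given in the sources used here. PCR duplicates are not stated to be removed. No library was a copy of another (chi-square per degree of freedom at least 2.30 over 15 pairs).

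Differences were tested by edgeR 4.0.16 under R 4.3.3 (filterByExpr, TMM, quasi-likelihood test, Benjamini-Hochberg adjustment over the 105 miRNAs tested), a model for counts. The study's methods name no test for miRNAs in particular, and for its comparisons of 2 groups in general an unpaired test of means. The standard error is the log2 fold change divided by the square root of F. Likeness used a prior count of 2. DESeq2 1.42.0 and limma 3.58.1 served as alternatives, beside other scalings, filters, thinning, a replicate block and leaving out each library. The procedure was tested on simulated data. Hairpins, 3′ UTRs and HOX genes came from GENCODE 44 on GRCh38, and mature sequences from RefSeq.

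The miRNAs named are the 5, their other arms, miR-10 relatives, let-7, marker miRNAs and, for each tested miRNA, the 2 nearest in pattern. The members and lists were chosen with earlier results of these data known. The genes that hold the miR-10a-5p match are not reported here.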

Additional observations from a re-analysis of the deposited data

How the results depend on the processing

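With 19 alternatives each, 17 values for miR-10a-5p, 18 for miR-10b-5p, 14 for miR-196a-5p and 18 for miR-615-3p kept their sign and their side of the thresholds. The call of miR-196a-5p was gained with library size only (log2 fold change -0.90), at least 10 counts in every library (-0.90) and edgeR's likelihood ratio test (-0.82). Giving every library the same size moved the median of all miRNAs from -0.04 to -0.89. There miR-10a-5p (-0.62) and miR-615-3p (-0.48) changed sign but stayed above that median, miR-10b-5p (-1.19), miR-196a-5p (-1.67) and miR-196b-5p without a filter (-2.31) were called, the ratio of mean CPM of miR-196b-5p went from -1.48 to -2.35 (log2), and 57 miRNAs were called in place of 19, 0 of them higher. Of the calls, 11 were higher and 8 lower as reported, against 8 higher and 11 lower with library size only. Leaving out 1 library gave from -0.049 to 0.45 for miR-10a-5p, from -0.47 to -0.26 for miR-10b-5p, from -1.03 to -0.69 for miR-196a-5p and from 0.13 to 0.67 for miR-615-3p, with 13 to 19 calls. The cause was not tested.

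A replicate block changed no call of these miRNAs. It gave 0.17 for miR-10a-5p, -0.37 for miR-10b-5p, -0.80 for miR-196a-5p, 0.37 for miR-615-3p and -1.57 for miR-196b-5p without a filter, on the log2 scale, and 16 miRNAs were called. Whether same-numbered libraries come from the same culture repeat is not stated. Their deviations correlated at -0.13, 0.13 and -0.03, and those of libraries with different numbers at -0.13 to 0.20. With so few libraries these values cannot decide it. Low counts limit miR-196b-5p and the minor arms most.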
